A study of Homo sapiens with 57 samples.

Results

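Immediate early genes are switched on within minutes of a stimulus without new protein synthesis. Under that heading, 10 listed genes, counting MYC, are described here in HCT116 cells, a human colorectal carcinoma line. Whether each of them meets the definition was not tested. The genes were taken as 11 transcripts by identifier from 228715 in the quantification tables. Their order was FOS, FOSL1, JUN, JUNB, JUND, EGR1, ATF3, DUSP1, IER2 and MYC, with 2 transcripts for MYC. The rule reads no measured value, but the list was drawn up with earlier results of these data known. The tables give identifiers without gene names, so each name comes from this list. RefSeq's length of the intronless genes JUN, JUNB and JUND equals the length of the listed transcript, at 3257, 1830 and 1929 bases.

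The messenger RNA part of the series holds 9 libraries in 3 groups of 3, named by the form of CTR1, a region of the elongation factor Spt5. Cells of the TE7 group carried Avi-Spt5(1-820), an Avi-tagged and shortened Spt5, with CTR1 in the form TE7. The TA7 group carried it with the form TA7, and the WT group with the form WT. What all 3 groups share is an Spt5-HA-dhfr fusion in the parent line, growth minus TMP, induction of the fragment from a pCW57 vector by 24 hours of doxycycline at 2 ug/ml, and a medium that held G418, blasticidin and hygromycin. The labels do not say whether each line was 1 clone, whether the numbered libraries of a group were separate cultures, or what the letters TA7 and TE7 stand for. A difference between the lines made for each construct and a difference due to the form of CTR1 cannot be told apart.

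Promoter-proximal pausing is a stop of RNA polymerase II shortly after the start site, from which it is released by P-TEFb acting on NELF and on Spt5. Short, strongly inducible genes such as FOS, JUN, JUNB, EGR1 and IER2 are textbook cases of paused genes. FOS and JUN family proteins pair through leucine zippers to form AP-1, which binds DNA sites close to those of ATF/CREB factors such as ATF3. The mRNAs of these genes are short-lived, so a steady-state level reflects both synthesis and decay. In bulk RNA, a change in all cells and a change in a part of them cannot be told apart.

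Library totals ranged from 64364751 to 90805283 estimated reads. Levels are given in CPM, reads relative to the library's total after TMM scaling, except where TPM is named, the authors' per-length value that allows genes to be compared with each other. When libraries were placed by multidimensional scaling, the first axis put WT replicate 1 (0.45) and TA7 replicate 1 (0.59) nearer the TE7 libraries (2.33 to 3.34) than the other WT and TA7 libraries (-3.27 to -1.67), and on the second axis WT replicate 1 stood alone at 5.29. For ATF3, IER2, EGR1 and FOSL1, WT replicate 1 was also the WT library closest to TE7, so values without it are given below. For JUN this held in CPM with TMM scaling, while in TPM, or scaled by library size alone, WT replicate 1 was the lowest of the WT libraries. All 11 transcripts passed the filter on low counts. Of these, 10 had between 1261 and 14373 reads in every library, and the second MYC transcript had 15 to 97.

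The first comparison asks how these mRNAs differ between cells with the TE7 and with the WT form. JUN and ATF3 were more than doubled in TE7, IER2 was raised by 1.6-fold and DUSP1 slightly, while the main MYC transcript and EGR1 were lower. FOS, FOSL1, JUNB, JUND and the second MYC transcript did not pass the test. In all, 6 of 11 members were called, meaning that edgeR's quasi-likelihood test gave a p under 0.05 after Benjamini-Hochberg adjustment, with 3 libraries a group. Of the 78478 transcripts tested 9.4% were called. Of the members 4 were higher and 2 lower in TE7, against 4.59% and 4.81% of all tested. Of the 13674 transcripts that averaged 10 CPM or more, a class that holds every member but the second MYC transcript, 29.1% were called, 14.3% higher and 14.8% lower in TE7. Among those of this class with 1500 to 4000 bases, 27.5% were called. The members' share is above these values, with few members behind it. The groups did not overlap for 7 of 11 members, against 32.9% of all tested transcripts and 54.9% of the class averaging 10 CPM or more. For the log2 change, the members' median was -0.06 and that of all tested transcripts -0.02, and the median size of the change without its sign was 0.56 and 0.57. That size was 0.32 in the class averaging 10 CPM or more and 0.30 in its part with 1500 to 4000 bases.

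**Figure D1:**
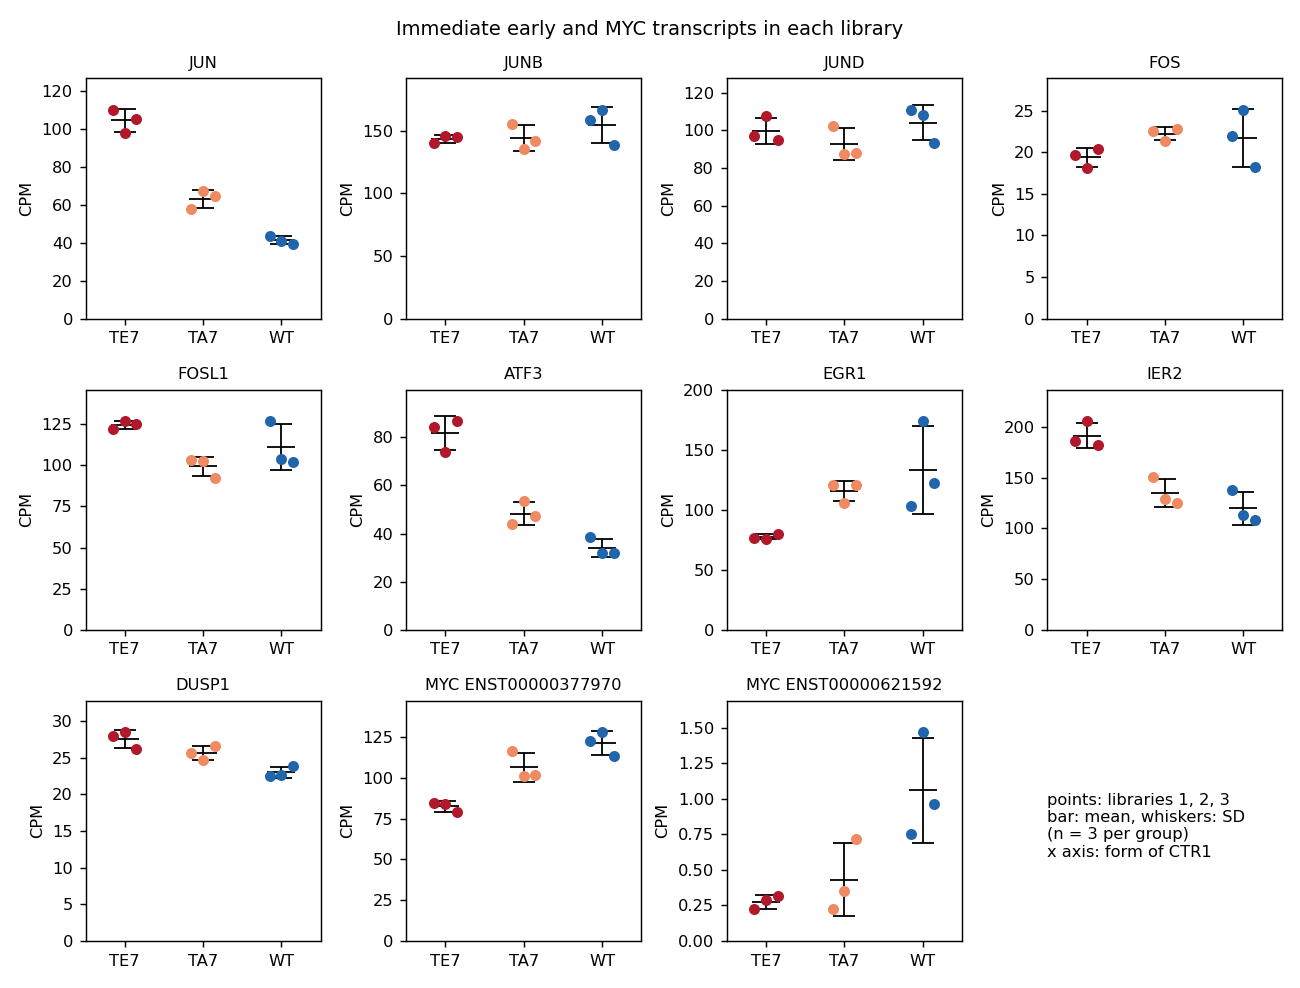
Level of each transcript in CPM (vertical axes, from 0) in the 3 libraries of the TE7, TA7 and WT groups (horizontal axes), with the mean and SD (n = 3). JUN, ATF3 and IER2 are highest in TE7, EGR1 and both MYC transcripts have their lowest mean there, and JUNB and JUND overlap in all groups.

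JUN (ENST00000371222) encodes the AP-1 subunit c-Jun, the target of the JNK kinases. It was at 110.2, 97.9 and 105.6 CPM in the TE7 libraries, and at 43.7, 41.0 and 39.5 CPM in the WT libraries. Every TE7 library was more than 2 times as high as every WT library. The log2 change was 1.34 ± 0.08 (SE), a 2.53-fold rise with edgeR adjusted p = 0.000249. Without WT replicate 1 it was 1.38, and the call held in each of the 9 fits that left out 1 library, with adjusted p up to 0.00267.

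The other JUN family members, which share the bZIP domain of JUN, did not pass the test. JUNB (ENST00000302754) was at 139.8, 145.4 and 144.9 CPM in TE7 and at 158.1, 166.6 and 138.4 CPM in WT. JUND (ENST00000252818), the family member least dependent on stimuli, was at 97.2, 107.6 and 94.6 CPM in TE7 and at 110.9, 108.1 and 93.2 CPM in WT. For both genes the TE7 and WT libraries overlapped. The 95% intervals of the log2 change ran from -0.29 to 0.08 for JUNB and from -0.28 to 0.16 for JUND, so a change as large as that of JUN lay outside them (edgeR adjusted p = 0.475 and 0.768). Per length, JUN made up 19.7% ± 1.39 of the summed TPM of the JUN family in TE7, 13.4% ± 1.88 in TA7 and 8.7% ± 0.57 in WT (SD, n = 3 each). JUNB held 46.5% ± 0.77 of that sum in TE7, 51.9% ± 0.78 in TA7 and 54.2% ± 1.26 in WT. The sum itself was 192.2 ± 1.69 TPM in TE7, 188.7 ± 11.9 in TA7 and 177.0 ± 11.9 in WT. The highest WT sum and the lowest TE7 sum were both 190.7 TPM.

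The windows around the start sites of JUN and JUNB, 250 bases before to 50 after, are shown because JUN was called and JUNB was not, and that of EGR1 because it was lower in TE7. They come from RefSeq, where 7 of the 10 genes had exactly 1 window, and the expression files use another build (hg19). Capitals mark matches, on either strand, to the AP-1 site TGACTCA, to TGACNTCA (which includes the CRE TGACGTCA), to the TATA box TATAAA or to the CArG box, the site of serum response factor. The form with N was added after the windows were seen.
JUN, RefSeq GRCh38.p14 chr1:58783998-58784297, minus strand: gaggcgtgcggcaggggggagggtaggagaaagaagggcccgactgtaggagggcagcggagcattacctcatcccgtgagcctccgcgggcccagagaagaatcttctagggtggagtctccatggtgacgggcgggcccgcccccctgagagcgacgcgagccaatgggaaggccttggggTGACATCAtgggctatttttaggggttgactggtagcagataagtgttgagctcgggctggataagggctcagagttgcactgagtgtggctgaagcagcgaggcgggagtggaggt
JUNB, RefSeq GRCh38.p14 chr19:12791236-12791535, plus strand: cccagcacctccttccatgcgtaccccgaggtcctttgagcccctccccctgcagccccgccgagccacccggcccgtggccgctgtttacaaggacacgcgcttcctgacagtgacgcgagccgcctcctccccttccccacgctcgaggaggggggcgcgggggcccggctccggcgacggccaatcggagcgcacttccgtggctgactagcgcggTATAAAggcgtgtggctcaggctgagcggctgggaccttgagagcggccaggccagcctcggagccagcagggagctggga
EGR1, RefSeq GRCh38.p14 chr5:138465229-138465528, plus strand: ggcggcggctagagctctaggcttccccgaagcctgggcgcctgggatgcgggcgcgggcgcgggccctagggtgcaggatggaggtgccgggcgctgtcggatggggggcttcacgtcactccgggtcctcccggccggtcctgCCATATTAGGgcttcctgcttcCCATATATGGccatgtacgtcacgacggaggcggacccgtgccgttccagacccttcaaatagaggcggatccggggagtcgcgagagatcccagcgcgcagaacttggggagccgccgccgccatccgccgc
The JUN window held TGACATCA from 67 to 60 bases before the start site, a site known to bind Jun and ATF family dimers. TGACNTCA was found in 7.72% of 35116 such windows of the RefSeq table. The JUNB window held TATAAA, as did those of FOS and DUSP1 and 11.5% of all windows, and no match to TGACNTCA. The EGR1 window held 2 CArG boxes, CCATATTAGG and CCATATATGG, a box found in 1.29% of windows. The window of IER2 held none of these motifs. JUND and DUSP1, one not called and the other called, each held TGACGTCA, found in 1.85% of windows. A match describes letters and not binding.

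ATF3 (ENST00000341491), a stress-induced member of the ATF/CREB family, rose by a similar size. It was at 84.5, 73.7 and 86.8 CPM in TE7 and at 38.5, 31.7 and 32.0 CPM in WT. The groups lay far apart. The log2 change was 1.26 ± 0.11 (SE), a 2.4-fold rise with edgeR adjusted p = 0.00106. It was 1.36 without WT replicate 1, and the call held in all 9 fits with 1 library left out, with adjusted p up to 0.00736. Only JUN and ATF3 among the members still passed an edgeR test against a 1.5-fold change in TE7 vs WT, a test chosen after the data were examined that called 1.28% of all tested transcripts.

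IER2 (ENST00000292433) encodes a small nuclear protein induced by growth factors. It was at 186.2, 205.9 and 182.3 CPM in TE7 and at 138.1, 112.8 and 107.9 CPM in WT, without overlap. The log2 change was 0.68 ± 0.11 (SE), with edgeR adjusted p = 0.0115. The change was 0.80 without WT replicate 1, and without WT replicate 2 it was 0.64 and just missed the threshold with adjusted p = 0.0502.

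DUSP1 (ENST00000239223), a phosphatase that switches off MAP kinases and so restrains this gene programme, changed little. It was at 27.9, 28.5 and 26.2 CPM in TE7 and at 22.5, 22.6 and 23.8 CPM in WT, without overlap. The rise of 1.2-fold had edgeR adjusted p = 0.0445, and no fit with 1 library left out kept it under the threshold, at adjusted p from 0.061 for the fit without WT replicate 1 to 0.131 for that without TE7 replicate 2. The fit with a replicate block gave 0.0922.

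Of the 2 FOS family transcripts described here, FOSL1 was the more abundant per length in every group. FOSL1 (ENST00000312562) encodes Fra-1, the FOS protein typical of carcinoma cells with active RAS and MAP kinase signalling. FOSL1 was at 121.8, 126.7 and 124.9 CPM in TE7 and at 127.0, 103.8 and 102.1 CPM in WT. In CPM, only WT replicate 1 reached the TE7 level. In TPM no WT library did, at 81.3, 74.4 and 76.9 against 86.3, 84.9 and 87.2 in TE7. There limma on log2(TPM + 1) gave adjusted p = 0.146. The log2 change was 0.17, with a 95% interval from -0.04 to 0.37 and edgeR adjusted p = 0.304. Without WT replicate 1 it was 0.28 with adjusted p = 0.0285. FOS (ENST00000303562), the prototype of the immediate early genes, was at 19.7, 18.1 and 20.4 CPM in TE7 and at 21.9, 25.1 and 18.2 CPM in WT, with overlap and a 95% interval of the log2 change from -0.44 to 0.11 (edgeR adjusted p = 0.446). FOSL1 made up 88.0% ± 0.78 of the summed TPM of FOS and FOSL1 in TE7, 83.4% ± 1.37 in TA7 and 85.0% ± 2.5 in WT (SD, n = 3 each).

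EGR1 (ENST00000239938), a zinc finger factor induced through serum response factor, was lower in TE7. It was at 77.0, 75.9 and 79.9 CPM in TE7 and at 103.7, 174.4 and 122.4 CPM in WT. The groups did not overlap, but the WT libraries were spread widely (133.5 ± 36.6 CPM, against 77.6 ± 2.07 in TE7, SD, n = 3). The log2 change was -0.78 ± 0.17 (SE), with edgeR adjusted p = 0.0305. It was -0.93 without WT replicate 1 and -0.54 without WT replicate 2, with adjusted p of 0.00949 and 0.0292. Without any 1 of the other 7 libraries (WT replicate 3, and each TA7 and TE7 library) the adjusted p rose to between 0.0543 and 0.109, with a replicate block it was 0.0718 and with only the 2 groups fitted 0.0696. EGR1 was above JUN per length in WT, at 3.4 ± 1.0 times its TPM, and below it in TE7, at 0.774 ± 0.04 times (SD, n = 3).

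MYC encodes a bHLH factor that drives growth and is a target of Wnt signalling in colorectal cancer. Its main transcript (ENST00000377970) was at 84.8, 84.1 and 78.9 CPM in TE7 and at 122.6, 128.1 and 113.6 CPM in WT. The lowest WT library lay well above the highest TE7 library. The log2 change was -0.56 ± 0.08 (SE), 1.47-fold lower in TE7, with edgeR adjusted p = 0.0054. The call held in all 9 fits with 1 library left out, with adjusted p up to 0.0304. The second transcript (ENST00000621592) was at 0.22, 0.29 and 0.31 CPM in TE7 and at 0.75, 1.47 and 0.96 CPM in WT, without overlap. Its log2 change of -1.94 ± 0.5 (SE) just missed the threshold, with edgeR adjusted p = 0.0527, and without TA7 replicate 3, which belongs to neither group, it was 0.0457. It was also under the threshold in DESeq2 (0.00365), with only the 2 groups fitted (0.0463) and without libraries 1 of WT and TA7 together (0.038), and up to 0.165 in the other fits with 1 library left out. It held 0.331% ± 0.068 of the reads of both MYC transcripts in TE7, 0.413% ± 0.259 in TA7 and 0.863% ± 0.267 in WT (SD, n = 3 each). The difference between TE7 and WT of -0.53 percentage points had exact permutation p = 0.1 (two-sided), the smallest that 3 against 3 libraries allow, and p = 0.3 after adjustment over 3 comparisons. The 2 transcripts share sequence, so their estimated reads can be exchanged.

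**Figure D2:**
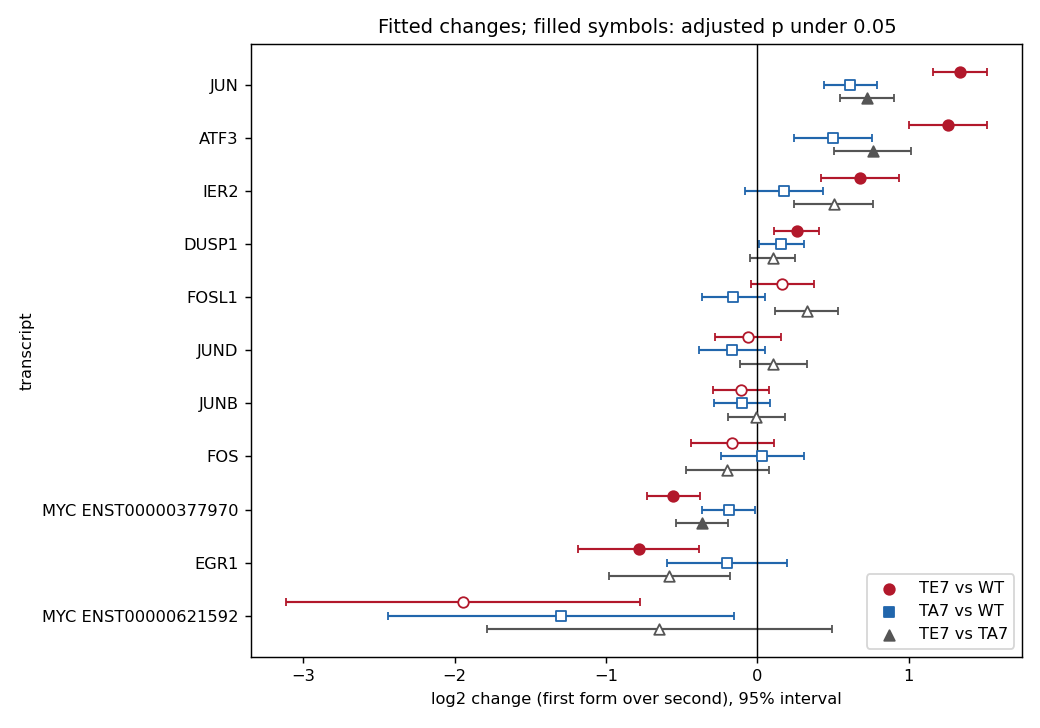
Fitted log2 change with its 95% interval (horizontal axis) of each transcript (vertical axis) in TE7 vs WT, TA7 vs WT and TE7 vs TA7, with filled symbols for adjusted p under 0.05. JUN (1.34) and ATF3 (1.26) stand at the upper end of TE7 vs WT, and the second MYC transcript (-1.94), with wide intervals, at the lower end.

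The second comparison sets TA7 against WT. JUN lay between the other groups in TA7, at 58.1, 67.3 and 64.5 CPM, against 41.4 ± 2.11 CPM in WT (SD, n = 3), without overlap. ATF3 was at 43.9, 53.4 and 47.2 CPM in TA7, above the 31.7 to 38.5 CPM of WT. None of the 11 members was called, where 0.0612% of all tested transcripts, 0.219% of the class averaging 10 CPM or more and 0.296% of its 1500 to 4000 base members were called. JUN was nearest, with a log2 change of 0.61 ± 0.08 (SE) and edgeR adjusted p = 0.0589. It was 0.0495 without WT replicate 1, and the other fits with 1 library left out gave up to 0.212. DESeq2 called JUN and ATF3, with adjusted p of 3.26e-10 and 0.00393, and it called 2.81% of all tested transcripts. At an unadjusted p under 0.05 there were 5 members, namely JUN, ATF3, DUSP1 and both MYC transcripts, against 7.73% of all tested transcripts and 18% of the class averaging 10 CPM or more. The groups did not overlap for 4 of 11 members, against 14.1% of all tested and 21.7% of that class.

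Apart from the second MYC transcript, the other members differed less between TA7 and WT than JUN and ATF3 did. EGR1 was at 121.2, 106.2 and 120.8 CPM in TA7, inside the range of the WT libraries. IER2 was at 150.6, 129.2 and 125.5 CPM in TA7 and overlapped with WT. The main MYC transcript was at 116.5, 101.0 and 101.7 CPM in TA7, with a log2 change of -0.19 and a 95% interval from -0.36 to -0.02 (edgeR adjusted p = 0.607). Its TA7 and WT libraries overlapped. The second MYC transcript was at 0.22, 0.35 and 0.72 CPM in TA7, below every WT library. Its log2 change of -1.30 ± 0.49 (SE) was the largest in size of all members, with edgeR adjusted p = 0.588. DUSP1 was at 25.6, 24.7 and 26.6 CPM in TA7, above every WT library, with a log2 change of 0.16 and edgeR adjusted p = 0.619. JUNB was at 155.5, 135.1 and 141.5 CPM in TA7 and overlapped with WT. JUND was at 102.5, 87.6 and 88.1 CPM and FOS at 22.5, 21.3 and 22.8 CPM in TA7, both with overlap. The 95% intervals of EGR1, IER2, FOS, FOSL1, JUNB and JUND included 0. For comparison, the log2 changes of JUN, ATF3, IER2, EGR1 and MYC were 1.34, 1.26, 0.68, -0.78 and -0.56 in TE7 vs WT and 0.61, 0.50, 0.18, -0.20 and -0.19 in TA7 vs WT. In the same order of comparisons, DUSP1, also called in TE7 vs WT, had 0.26 and 0.16. Among members not called there, FOSL1 had 0.17 and -0.16, FOS -0.17 and 0.03, and JUND -0.06 and -0.17. JUNB had -0.11 and -0.10, and the second MYC transcript -1.94 and -1.30. Both comparisons use the same 3 WT libraries, so their values are not independent. In CPM, the TA7 mean lay between the TE7 and the WT mean for 8 of 11 members, the exceptions being FOS, FOSL1 and JUND. For JUNB the TA7 and TE7 means were close, at 144.0 and 143.3 CPM. In TPM, JUNB and DUSP1 were exceptions as well, with their highest means in TA7 (98.0 and 17.0 TPM). The share of all tested transcripts with such an order was not computed, so the count cannot be set against a background.

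The third comparison sets the TE7 group against the TA7 group, so that WT is not the base. It called 3 of 11 members, JUN and ATF3 higher and the main MYC transcript lower in TE7, against 3.07% of all tested transcripts, 1.29% higher and 1.78% lower. In the class averaging 10 CPM or more 11.9% were called, 5.05% higher and 6.85% lower, and 10.5% of those with 1500 to 4000 bases. JUN averaged 104.6 ± 6.18 CPM in TE7 and 63.3 ± 4.73 in TA7 (SD, n = 3), a log2 change of 0.72 ± 0.08 (SE) with edgeR adjusted p = 0.00701. Its call held in each fit with 1 library left out, with adjusted p up to 0.0422. ATF3 averaged 81.7 ± 6.96 CPM in TE7 and 48.2 ± 4.82 in TA7, a log2 change of 0.76 ± 0.11 (SE) with edgeR adjusted p = 0.0179. Without any 1 of the 6 TE7 and TA7 libraries the adjusted p of ATF3 lay between 0.0509 and 0.091, and with a replicate block at 0.0576. MYC averaged 82.6 ± 3.25 CPM in TE7 and 106.4 ± 8.74 in TA7, with adjusted p = 0.0467. That call held without WT replicate 1 (0.0427), while without any 1 of the other 8 libraries it lay between 0.054 and 0.153. It was also lost with a replicate block (0.061), with the effective length offset (0.0513), with no filter (0.0956) and without libraries 1 of WT and TA7 together (0.0601).

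Members that did not pass between TE7 and TA7 included some whose libraries were apart. IER2 was higher in every TE7 library, with a log2 change of 0.50 ± 0.11 (SE) and edgeR adjusted p = 0.0588, and without WT replicate 1 the adjusted p was 0.023. EGR1 was lower in every TE7 library, with a log2 change of -0.58 ± 0.17 (SE) and edgeR adjusted p = 0.118, and without WT replicate 2 it was 0.0326. FOSL1, at 103.0, 102.6 and 92.5 CPM in TA7, was lower there than in every TE7 library, with a log2 change of 0.32 ± 0.09 (SE) and edgeR adjusted p = 0.103, and without WT replicate 1 it was 0.0211. For IER2, EGR1 and FOSL1 alike, this was the only fit under the threshold among the 9 that left out 1 library. The other such fits gave adjusted p up to 0.221 for IER2, 0.307 for EGR1 and 0.312 for FOSL1. The WT libraries, which belong to neither group compared, enter these values through the shared estimate of the spread, the scaling and the filter on low counts. The TE7 and TA7 libraries did not overlap for 7 of 11 members, against 31.5% of all tested transcripts and 56% of the class averaging 10 CPM or more. FOS was among the 7, at 18.1 to 20.4 CPM in TE7 and 21.3 to 22.8 CPM in TA7. Its log2 change was -0.20 ± 0.12 (SE), with edgeR adjusted p = 0.426.

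Levels per length placed the members in another order in each group. In TE7, IER2 led with 103.1 ± 4.43 TPM, followed by JUNB with 89.4 ± 1.46, FOSL1 with 86.1 ± 1.12, JUND with 64.9 ± 3.13 and ATF3 with 51.9 ± 5.5 (SD, n = 3). MYC had 44.0 ± 1.45 TPM in TE7 and its libraries overlapped with the lowest of ATF3, and below them stood JUN, EGR1, DUSP1 and FOS, each apart from the next. In TA7, JUNB led with 98.0 ± 6.69 TPM, and IER2, FOSL1, JUND and MYC followed with ranges that overlapped from each to the next. In WT, JUNB led with 96.1 ± 8.6 TPM and FOSL1 followed with 77.5 ± 3.5, while MYC, JUND, IER2 and EGR1 could not be ordered beyond their spread. JUN (15.4 ± 0.53 TPM), DUSP1 (14.3 ± 1.59) and FOS (13.6 ± 2.17) also overlapped from each to the next in WT, below ATF3 with 21.9 ± 0.87. JUN overlapped with DUSP1 in WT and stood above it in every library of TE7 and of TA7. The second MYC transcript was last everywhere, below 1 TPM.

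**Figure D3:**
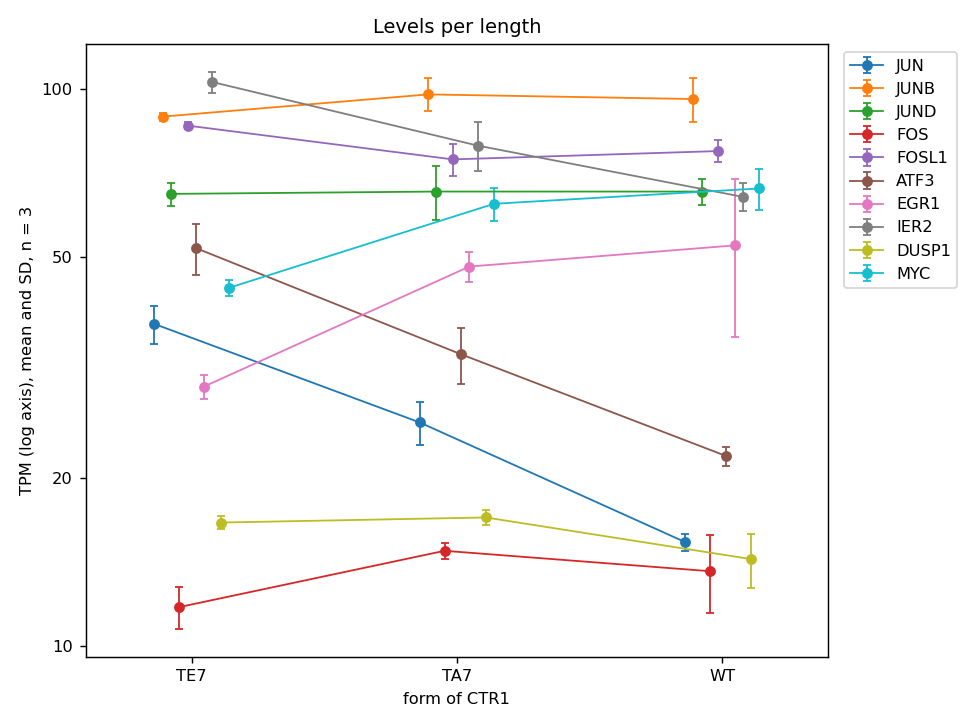
Mean TPM with SD (n = 3, vertical log axis) of the 10 transcripts above 1 TPM in the TE7, TA7 and WT groups (horizontal axis). The lines of JUN, ATF3 and IER2 are highest in TE7, those of MYC and EGR1 are lowest there, and JUND stays near 65 TPM.

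Across the 9 libraries the member most like JUN was ATF3. The Pearson correlation of their log2(CPM + 1) was 0.99, and ATF3 had rank 8 among the 78477 other transcripts by likeness to JUN, of which 544 (0.693%) reached 0.95. These libraries fall into 3 groups that differ in both genes, so the value includes the differences between groups. After subtraction of the group means the correlation was 0.88 over the same libraries. How many other transcripts reach that after the same subtraction was not computed. The correlation after subtraction was 0.81 with library size alone and 0.86 in TPM, both chosen after the data were examined. In TE7 both genes were lowest in replicate 2, and in TA7 both were lowest in replicate 1 and highest in replicate 2. In WT both were highest in replicate 1 in CPM, but in TPM JUN was lowest there (14.8, 15.6 and 15.8 TPM in the WT libraries) and ATF3 highest (22.5, 20.9 and 22.4 TPM). The TPM of ATF3 was 1.37 ± 0.06 times that of JUN in TE7, 1.32 ± 0.05 times in TA7 and 1.43 ± 0.09 times in WT (SD, n = 3 each).

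**Figure D4:**
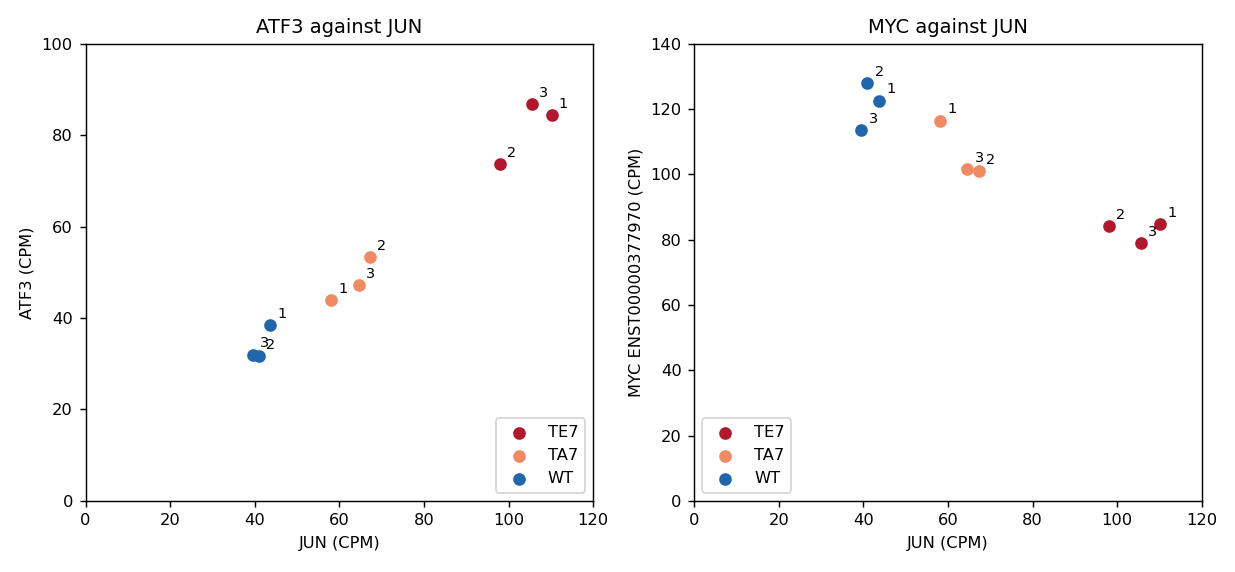
CPM of ATF3 (left, vertical axis) and of the main MYC transcript (right, vertical axis) against CPM of JUN (horizontal axes) in each library, numbered by replicate. ATF3 is higher in the groups where JUN is higher and MYC is lower there, and within TE7 and WT the libraries do not all keep one order.

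Among the members called in TE7 vs WT, the other likenesses followed the split into higher and lower members. MYC was most like EGR1 (0.87) and most opposed to ATF3 (-0.95), IER2 was most like ATF3 (0.90), and DUSP1 was most like JUN (0.88). Of the members not called there, JUNB and JUND were most like each other (0.81). FOS was most like EGR1 (0.70) and FOSL1 most like IER2 (0.74). Because the called members moved in opposite directions, no other transcript had a high mean correlation with all 6, and the highest were 0.349 for ENST00000260386.7_2 and 0.347 for ENST00000401576.1_1, which the tables do not pair with a gene. These correlations are descriptions over 9 libraries that share 3 group means.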

How the data were processed

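Messenger RNA was selected with oligo-dT from Trizol extracts, and per the labels' protocols 1 ug of RNA entered the Tecan/Nugen ultra-low kit. Reads were handled with cutadapt 2.3 and quantified with Salmon 1.3.0, and the build is named as hg19, per the submitters' processing notes. No source used here gives the transcript set. The authors' estimated count column (expected counts) carries no normalization, and Salmon divides shared reads among transcripts. Their deposited TPM column adjusts for effective length and depth. Lengths and effective lengths are as deposited.

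Estimated counts were rounded to whole numbers, filtered with edgeR 4.0.16 (filterByExpr on group, 78478 of 228715 transcripts kept, 99.7% to 99.8% of reads), and scaled with TMM factors of 0.92 to 1.037. One quasi-likelihood fit on group over the 9 libraries gave all 3 comparisons, adjusted over all tested transcripts. Standard errors are the change divided by the square root of F. All 11 members are named. The members, lists and tests were chosen with earlier results of these data known. The gene tables pair no transcript of these files with a symbol, so other immediate early genes and markers of the cell line were not analysed here, and other transcripts of these genes are not included. No 2 libraries of a group agreed within sampling noise. Since separate cultures are not stated, the p-values cover the spread of these libraries alone, which may be technical. Alternatives used DESeq2 1.42.0 and limma 3.58.1. The other 48 samples of the series were not analysed here.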

Additional observations from a re-analysis of the deposited data

How the results depend on the processing

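Over 22 alternatives and 3 comparisons, 626 fitted changes of single members kept their direction and their side of the threshold, 52 fell out of it, 29 came into it and 13 turned. Each count of members from a single fit is followed by the share of all tested transcripts called in it. For the fits with 1 library left out the range of counts is given, with shares for those without WT replicate 1 or 2. In TE7 vs WT, where 6 members were called (9.4%), the count was 7 in DESeq2 (20.2%), 7 without WT and TA7 libraries 1 together (11.9%), 4 with a replicate block (6.77%), 2 in the test against a 1.5-fold change (1.28%, chosen after the data were examined, fewer by its construction) and 4 to 6 with 1 library left out. In TE7 vs TA7, where 3 were called (3.07%), it was 6 in DESeq2 (13.4%), 6 with only the groups compared (6.53%), both times adding IER2, FOSL1 and EGR1, 1 with a replicate block (1.4%), 0 against a 1.5-fold change (0.154%) and 1 to 5 with 1 library left out. In TA7 vs WT, where 0 were called (0.0612%, with 5 members at an unadjusted p under 0.05 in edgeR), it was 2 in DESeq2 (2.81%) and 0 with a replicate block (0%). It was 1, which was JUN, with library size alone (0.0726%), with a filter of 1 CPM in 3 or more libraries (0.219%), with the effective length offset (0.0803%) and with limma on log2(TPM + 1) or log2(TPM + 0.1) (0.152% and 0.218%), and 0 to 1 with 1 library left out. Without WT replicate 1 the counts were 6 (11.7%), 5 (5.63%) and 1 (0.187%), in the order of comparisons given here. Without WT replicate 2 they were 4 (4.13%), 3 (1.54%) and 0 (0.09%). The labels tie the replicate numbers to no shared culture or day. Same-numbered libraries had correlations of -0.07 to 0.23 in their deviations from the group means, 3 of 9 above 0.1, against -0.23 to 0.09 for different numbers, so the numbers were not taken to pair the libraries, by a rule that asks for over 0.1 in every pair.

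The turned values were log2 changes near 0 of members that were not called. For JUND in TE7 vs WT the value was 0.0391 with the effective length offset, and in TE7 vs TA7 -0.0094 and -0.0095 with limma. For JUNB in TE7 vs TA7 it was 0.0454 without WT and TA7 libraries 1 together, 0.0152 with the offset, and -0.0461 to 0.0536 with 1 library left out, positive without TA7 replicate 1 or TE7 replicate 1. With limma at pseudocounts of 1 and 0.1, JUNB in TA7 vs WT was at 0.0289 and 0.0292, and DUSP1 in TE7 vs TA7 at -0.0286 and -0.0302. With 1 library left out, EGR1 in TA7 vs WT ran from -0.345 to 0.0407 (without WT replicate 2), and FOS in TA7 vs WT from -0.0795 (without WT replicate 3) to 0.151. In percentage points, the share of the second MYC transcript differed by -0.660 to -0.393 in TE7 vs WT, -0.593 to -0.312 in TA7 vs WT and -0.192 to 0.0611 (without TA7 replicate 3) in TE7 vs TA7. The cause was not tested, other than for the 1.5-fold test. The second MYC transcript had no value under the 1 CPM filter or with both transcripts summed, and its 15 to 97 reads limit its precision.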
